A study of Homo sapiens with 2 samples.

Results

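Zinc-binding and zinc-moving genes were examined in human pancreatic cancer cells treated with dihydroartemisinin (DHA). The 34 genes are the protein-coding rows of the counts table named MT1 plus 1 letter, MT2A, SLC30A or SLC39A plus a number, and MTF1, out of 58735 rows in all. They comprise 9 metallothionein genes, 10 zinc exporter genes (SLC30A), 14 zinc importer genes (SLC39A) and the gene of the zinc-sensing transcription factor MTF1. All cells were of a highly metastatic derivative of SUIT-2, an established line from a human pancreatic adenocarcinoma. RNA was sequenced as 1 library from cells given DHA and 1 from cells labelled NC, which the design text calls untreated. DHA is the active form of the artemisinin antimalarials and carries a peroxide bond that iron and heme can cleave. The sources used here give neither its dose nor the time of exposure, and do not say whether NC cells received a vehicle.

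Metallothioneins are small cysteine-rich proteins that bind zinc and copper, buffer free zinc in the cytosol and take up cadmium. When free zinc rises, MTF1 binds metal response elements in promoters and induces metallothionein genes and SLC30A1. Most SLC30A proteins (ZnT) move zinc out of the cytosol, to the outside or into organelles, and SLC39A proteins (ZIP) move it into the cytosol. In the pancreas zinc is secreted with exocrine and endocrine products, and altered ZIP and metallothionein levels have been described in pancreatic cancer.

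The DHA library held 14521101 counted reads and the NC library 15452609. With 1 library a group there is no replicate check, and higher or lower refers to these 2 libraries, not to the conditions. Ratios are DHA over NC after TMM scaling (trimmed mean of M values), with 95% counting intervals that cover counting error only. A call of higher or lower needed 50 reads or more in 1 of the libraries, a 2-fold or larger ratio, and an interval without 1. Of the 34 genes, 23 had enough reads, 7 had reads below that minimum and 4 had 0 reads in both libraries.

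Markers of the labelled cell type moved between the libraries. Of 7 epithelial markers of pancreatic cancer cells, 6 had enough reads. All 6 were called lower in the DHA library, from 2.34-fold for KRT18 to 37.6-fold for CDH1, against 10.3% of all genes with enough reads. KRT7 fell short of the read minimum, with 26 reads in the DHA library and 49 in the NC library. The 7 markers summed to 290.3 RPKM (reads per kilobase of the deposited gene length, scaled to library size by TMM) in the DHA library and 760.1 in the NC library. The part of this difference in the zinc gene results was not tested. Endothelial markers summed to 66 reads in the DHA library and 281 in the NC library. PECAM1 held 54 of these in the DHA library and 280 in the NC library, whereas KDR had 9 in the DHA library and 0 in the NC library. Fibroblast markers summed to 12 and 105 reads in the DHA and NC libraries. In both libraries, PTPRC, CD68, CD3E, CDH5, DCN and INS had 0 reads. The protocol text names retina, but the retinal markers CRX, RCVRN and RLBP1 had 0 reads in both libraries and OPN1SW and PDE6A together had 54 in the DHA library and 67 in the NC library. Fewer cells of a kind and less RNA per cell cannot be told apart in these bulk samples.

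The zinc genes gave 2 higher calls, MT1X and MT2A, and 2 lower calls, MT1A and SLC39A10. That is 8.70% of the 23 genes in each direction, against 6.72% higher and 10.3% lower among the 12064 genes with enough reads in the table. In either direction, 4 of the 23 were called, against 17.0% of all genes, so the share called was near the background. The median log2 ratio of the 23 genes was 0.23, and the median over all 12064 genes was 0.04. At any size, the intervals of 13 of the 23 lay above 1, against 39.8% of all genes, and those of 5 lay below 1, against 35.5%.

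**Figure D1:**
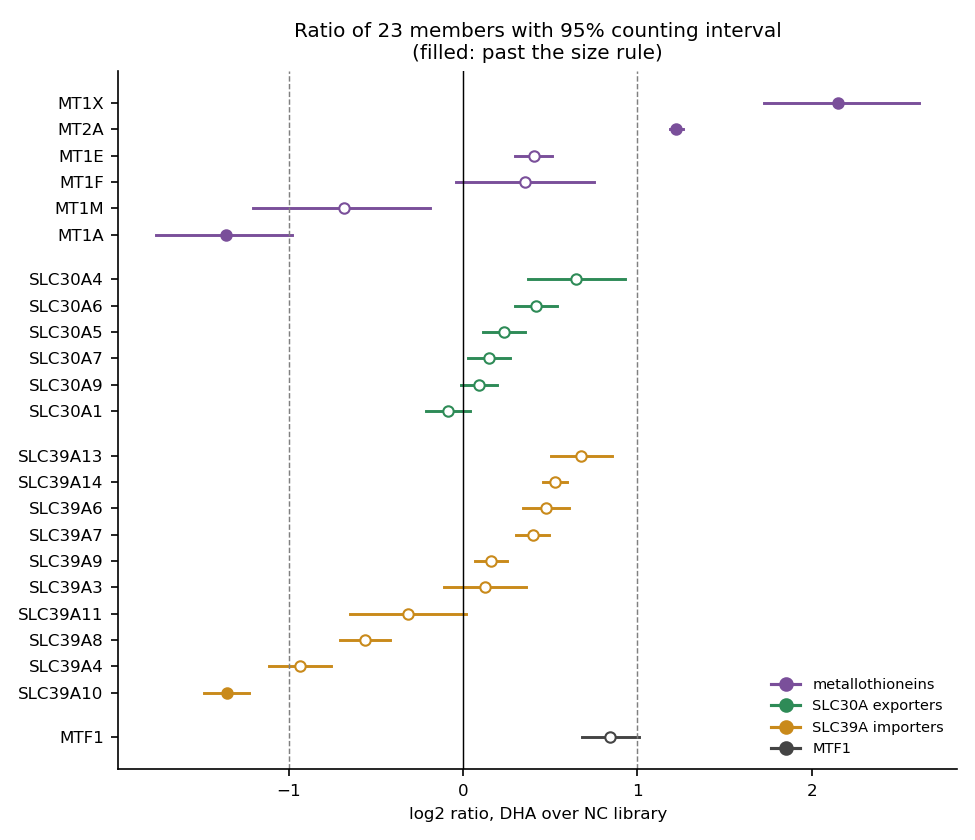
Log2 ratio of the DHA over the NC library for the 23 zinc genes that reached 50 reads in either library. Lines are 95% counting intervals, dashed lines mark 2-fold, and filled points passed the size rule. MT1X and MT2A lie beyond 1 on the right, MT1A and SLC39A10 beyond -1 on the left.

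The metallothionein pool was larger in the DHA library and was mostly MT2A, the ubiquitous inducible metallothionein. All metallothionein members together had 19160 reads in the DHA library and 9477 in the NC library, a ratio of 2.14 (2.08 to 2.19). MT2A alone gave 88.9% of the metallothionein reads in the DHA library (exact binomial interval 88.5% to 89.4%) and 81.4% in the NC library (80.6% to 82.1%). Without MT2A the sum was 2124 reads in the DHA library and 1767 in the NC library, a ratio of 1.27 (1.19 to 1.36). MT2A thus carried most of the difference in the sum. All 9 genes lie within 76.0 kb of chromosome 16 (GRCh38).

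MT2A (ENSG00000125148, chr16:56608199-56609497, plus strand) had 17036 reads in the DHA library and 7710 in the NC library, and was 2.33-fold higher (2.27 to 2.40). Its level was 899.7 RPKM in the DHA library and 386 in the NC library. By that level it ranked 25th among all genes of the DHA library and 57th in the NC library. MT1X (ENSG00000187193, chr16:56682424-56684196, plus strand), an inducible family member at the far end of the cluster, had 228 reads in the DHA library and 54 in the NC library. It was 4.43-fold higher (3.30 to 6.12), the highest ratio of the 23 zinc genes with enough reads. Its level was 8.82 RPKM in the DHA library and 1.98 in the NC library, well below that of MT2A. Those levels exceeded 58.9% of genes with enough reads in the DHA library and 19.1% in the NC library.

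MT1A (ENSG00000205362, chr16:56638666-56640087, plus strand) went the other way, with 78 reads in the DHA library and 212 in the NC library, 2.56-fold lower (1.98 to 3.38). MT1M had 54 reads in the DHA library and 92 in the NC library, a log2 ratio of -0.68 (-1.20 to -0.19) that was not called. Among the metallothionein members with enough reads, MT1A and MT1M are neighbours in the cluster. The next such members on both sides, MT1E and MT1F, had log2 ratios above 0. MT1E, the second most abundant member, had 1642 reads in the DHA library and 1309 in the NC library, a log2 ratio of 0.41 (0.30 to 0.51). MT1F had 121 and 100 reads in the DHA and NC libraries, and its log2 ratio of 0.35 had an interval that included 0 (-0.04 to 0.75). The level of MT1X relative to MT1A was 0.653 in the DHA library and 0.0569 in the NC library, on the RPKM scale. That scale depends on the deposited lengths, 1773 bases for MT1X and 396 for MT1A. By reads, MT1X was above MT1A in the DHA library (228 against 78) and below it in the NC library (54 against 212).

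MT1B had 1 read in the DHA library and 0 in the NC library, and MT1G and MT1H had 0 in both. A count of 0 allows up to 3 reads, or 0.206 CPM in the DHA library and 0.195 CPM in the NC library. Of the 12 other metallothionein rows in the table, pseudogenes, MT3, MT4 and MT1HL1, 7 had 0 reads in both libraries and none reached the read minimum. Together they held 21 reads in the DHA library and 13 in the NC library, so few reads were assigned to pseudogenes. The sources used here do not say how reads that match several family members were counted. Of all 50-base stretches in the transcripts of a member, those also found in another gene made up 3.02% for MT2A, 18.3% for MT1X, 5.76% for MT1A, 9.87% for MT1M and 7.10% for MT1E. MT1X shares 18.1% of its exon length with a non-coding gene on its strand, AC026461.1, which had 0 reads in both libraries.

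The metallothionein genes are short, and short genes as a class had lower ratios in the DHA library. Protein-coding genes under 2 kb with enough reads had a median log2 ratio of -0.21 (763 genes), against 0.10 for those of 5 to 8 kb (3456 genes). After removal of a trend across genes on length and GC, MT2A had a log2 ratio of 1.44 in place of 1.22 and MT1E had 0.64. MT1A had -1.12 and MT1X 2.33 after the same step.

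**Figure D2:**
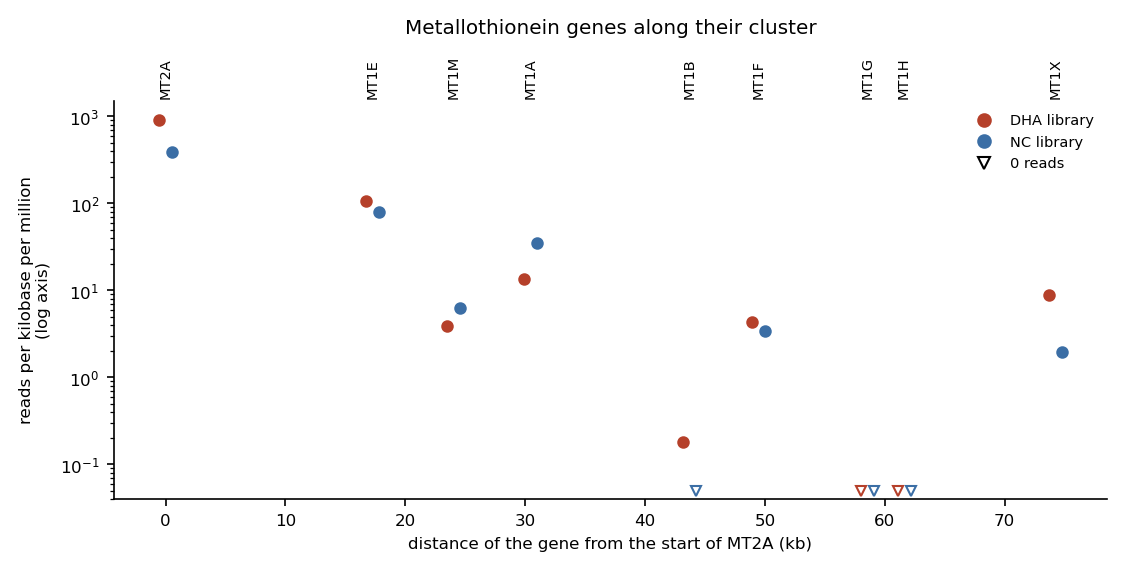
RPKM on a log axis of the 9 metallothionein genes at their distance in kilobases from the start of MT2A, with 1 point per library. Open triangles mark 0 reads. MT2A is at the left end and MT1X at the right end, with DHA above NC for both and below it for MT1A.

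Promoter windows are printed here for the called genes MT2A and MT1X, for MT1H, which had 0 reads, and for SLC30A1, because these are the classic zinc-responsive genes. Each runs from 250 bases before to 50 bases after the RefSeq transcription start on GRCh38.p14, 5′ to 3′ on the gene's strand, and RefSeq starts differ from the gene starts in the table. Capitals mark matches on either strand to the core of the metal response element, TGCACNC or TGCGCNC, and no matches overlapped.
MT2A (chr16:56608334-56608633, plus strand): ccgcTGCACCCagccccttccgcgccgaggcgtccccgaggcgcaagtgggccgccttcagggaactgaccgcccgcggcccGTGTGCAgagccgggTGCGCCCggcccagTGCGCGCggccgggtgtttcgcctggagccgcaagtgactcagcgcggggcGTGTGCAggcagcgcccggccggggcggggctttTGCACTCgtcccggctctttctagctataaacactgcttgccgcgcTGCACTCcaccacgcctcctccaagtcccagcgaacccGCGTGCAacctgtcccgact
MT1X (chr16:56682220-56682519, plus strand): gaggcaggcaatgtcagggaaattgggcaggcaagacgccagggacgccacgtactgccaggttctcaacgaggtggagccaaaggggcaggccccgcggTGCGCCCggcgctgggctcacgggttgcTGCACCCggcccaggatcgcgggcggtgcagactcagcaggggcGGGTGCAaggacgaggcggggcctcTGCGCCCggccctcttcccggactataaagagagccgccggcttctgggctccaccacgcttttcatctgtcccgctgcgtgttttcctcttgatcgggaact
MT1H (chr16:56669564-56669863, plus strand): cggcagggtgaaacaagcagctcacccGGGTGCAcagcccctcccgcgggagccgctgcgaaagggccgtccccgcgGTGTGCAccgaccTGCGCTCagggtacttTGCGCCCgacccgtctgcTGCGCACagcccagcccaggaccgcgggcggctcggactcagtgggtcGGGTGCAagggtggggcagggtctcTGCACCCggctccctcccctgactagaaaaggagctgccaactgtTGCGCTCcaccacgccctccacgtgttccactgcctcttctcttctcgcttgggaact
SLC30A1 (chr1:211579112-211579411, minus strand): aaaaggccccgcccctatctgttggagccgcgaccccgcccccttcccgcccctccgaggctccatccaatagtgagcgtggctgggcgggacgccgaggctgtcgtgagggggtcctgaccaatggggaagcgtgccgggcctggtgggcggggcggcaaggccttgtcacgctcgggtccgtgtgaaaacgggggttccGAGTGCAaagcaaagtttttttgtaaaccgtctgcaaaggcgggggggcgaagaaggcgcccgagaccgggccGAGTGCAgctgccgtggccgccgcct

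MT2A held 8 core matches, MT1X 4, MT1H 8, MT1B 3 and SLC30A1 2. Of all 35116 RefSeq promoter windows of that length, 29.6% held at least 1 match, 2.30% at least 3, 0.601% at least 4 and 0.0199% at least 8. MT1H, with the same number of matches as MT2A, had 0 reads in both libraries, so the count of matches did not order the 4 metallothionein genes by their level. The 4 metallothionein windows shared a match that starts 53 or 54 bases before the transcription start. Counted by window, since a gene can have several, 6 of 11 exporter windows and 7 of 19 importer windows held at least 1 match (54.5% and 36.8%). SLC39A10 held 1, in 1 of its 2 windows, and MTF1 held 0. Windows were found for 26 of the 34 genes, and MT1A, MT1E, MT1F, MT1G, MT1M, SLC30A8, SLC39A4 and SLC39A14 had none to search. These are matches of letters and do not show binding.

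**Figure D3:**
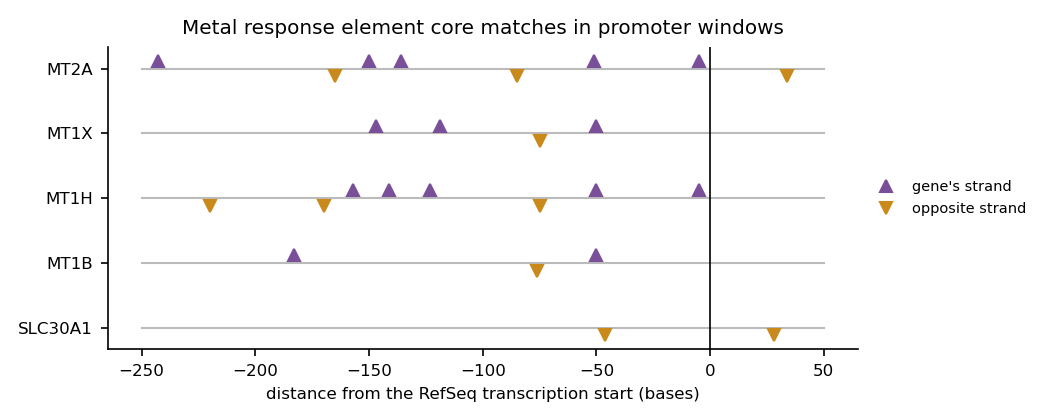
Centres of metal response element core matches, in bases from the RefSeq transcription start, in the promoter windows of MT2A, MT1X, MT1H, MT1B and SLC30A1. Upward triangles are matches on the gene's strand and downward triangles on the opposite strand. All 4 metallothionein genes have a match that starts 53 or 54 bases before the start.

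MTF1, the zinc sensor (ENSG00000188786, chr1:37809567-37859620, minus strand), had 837 reads in the DHA library and 493 in the NC library. Its ratio was 1.79, a log2 ratio of 0.84 (0.68 to 1.01) that was not called. Its level was 7.16 RPKM in the DHA library and 3.99 in the NC library.

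SLC30A1 encodes the zinc exporter of the cell surface and, with the metallothioneins, is the best known MTF1 target. It had 981 reads in the DHA library and 1101 in the NC library, a log2 ratio of -0.09 (-0.21 to 0.04). The upper end of that interval lies below the counting intervals of MT2A and MT1X.

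None of the exporter genes was called in either direction. Of 10 exporters, 6 had enough reads, with a median log2 ratio of 0.19 and a range of -0.09 to 0.65. SLC30A5, SLC30A6 and SLC30A7 load zinc into the Golgi and early secretory pathway, where it reaches zinc enzymes, and SLC30A5 and SLC30A6 work as a pair. SLC30A6 had 1238 reads in the DHA library and 979 in the NC library, a log2 ratio of 0.42 (0.30 to 0.54). SLC30A5 had 1185 and 1064 reads in the DHA and NC libraries, a log2 ratio of 0.23 (0.11 to 0.35). SLC30A7 had 1182 and 1126 reads in the DHA and NC libraries, a log2 ratio of 0.15 (0.03 to 0.27). All 3 intervals lay above 0, at sizes well under 2-fold. Among all genes with enough reads, 39.8% had intervals above 0. Upper-quartile scaling shifted log2 ratios by -0.065, more than the 0.03 by which the SLC30A7 interval cleared 0.

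SLC30A4, a transporter of vesicles and endosomes, had the highest exporter ratio, with 269 reads in the DHA library and 181 in the NC library and a log2 ratio of 0.65 (0.37 to 0.93). SLC30A9, of mitochondria, had 1507 reads in the DHA library and 1492 in the NC library, a log2 ratio of 0.09 (-0.01 to 0.20). Per length, SLC30A6 was the most abundant exporter in the DHA library at 15.7 RPKM, followed by SLC30A9 at 14.3 and SLC30A5 at 14.1. In the NC library SLC30A9 came first at 13.4 RPKM, followed by SLC30A1 at 13.1 and SLC30A5 at 11.9. The other 4 exporters were near or at 0. SLC30A3, known from synaptic vesicles, had 3 reads in the DHA library and 18 in the NC library, a ratio whose interval ran from 1.66-fold to 30.1-fold lower. SLC30A8, of insulin granules, had 0 and 6 reads in the DHA and NC libraries, and its counting interval began at 1.11-fold lower. SLC30A10, chiefly a manganese exporter, had 0 and 1, and SLC30A2 had 0 in both.

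**Figure D4:**
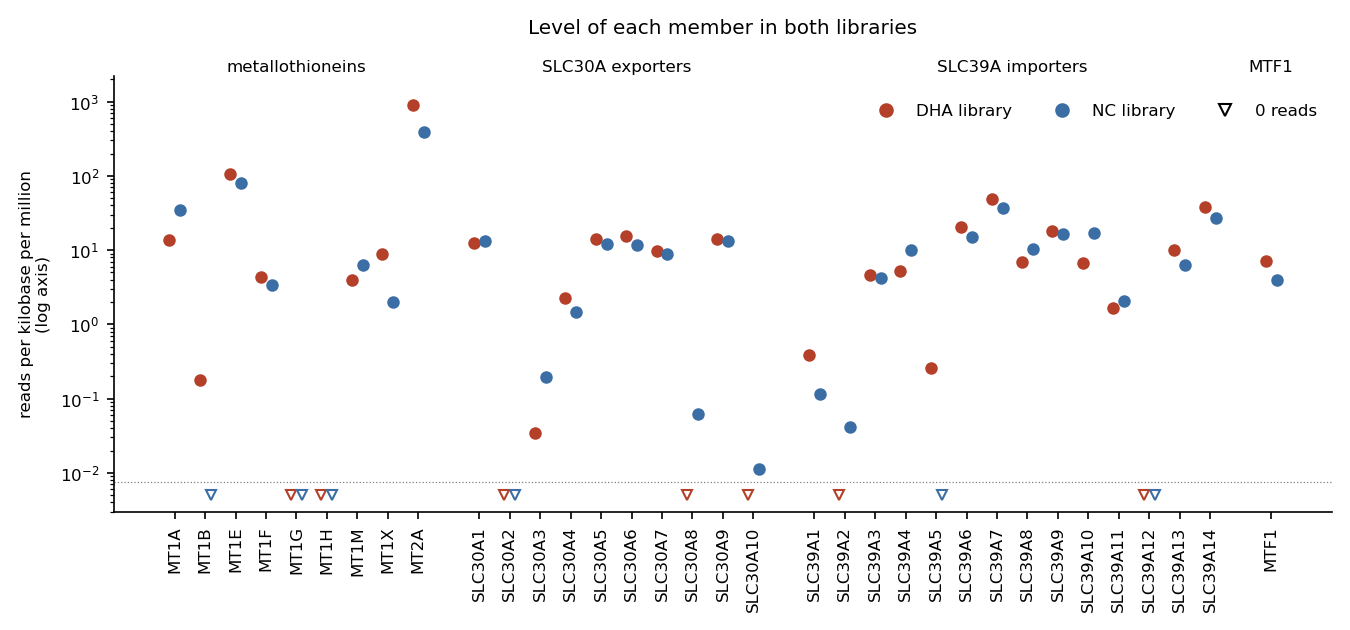
Level of the 34 zinc genes in both libraries, in RPKM on a log axis, with genes grouped by role and open triangles for 0 reads. MT2A stands highest in both libraries, and SLC39A10 shows the widest gap between libraries among the transporters above 1 RPKM.

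The importers spread more widely. Of 14 importers, 10 had enough reads, with a median log2 ratio of 0.14 and a range of -1.35 to 0.68, and SLC39A10 alone was called. SLC39A10 (ENSG00000196950, chr2:195575977-195737702, plus strand), a cell surface importer, had 672 reads in the DHA library and 1815 in the NC library, 2.56-fold lower, a log2 ratio of -1.35 (-1.48 to -1.23). It ranked 7th among importers by level in the DHA library, at 6.67 RPKM, and 3rd in the NC library, at 17.05 RPKM. In mouse and zebrafish, SLC39A10 is known as a gene that MTF1 represses.

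SLC39A4, the intestinal importer mutated in acrodermatitis enteropathica and described as raised in pancreatic cancer, had 386 reads in the DHA library and 779 in the NC library. Its log2 ratio of -0.93 (-1.11 to -0.76) was just short of the 2-fold limit and was not called. SLC39A8, which also carries manganese, iron and cadmium, had 654 reads in the DHA library and 1018 in the NC library, a log2 ratio of -0.56 (-0.70 to -0.42). Of the 6 cell surface importers with enough reads, SLC39A4, SLC39A8 and SLC39A10 thus had intervals below 0, 2 had intervals above 0 and 1 spanned it. Among all genes with enough reads, 35.5% had intervals below 0 and 39.8% above it.

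SLC39A14, the closest relative of SLC39A8 and also a carrier of iron and manganese, lay above 0. It had 3909 reads in the DHA library and 2865 in the NC library, a log2 ratio of 0.53 (0.46 to 0.60). Its level was 38.6 RPKM in the DHA library and 26.8 in the NC library. The level of SLC39A8 relative to SLC39A14 was 0.179 in the DHA library and 0.381 in the NC library. SLC39A6, which forms a complex with SLC39A10, had 1105 reads in the DHA library and 840 in the NC library, a log2 ratio of 0.47 (0.34 to 0.61). The partners therefore had ratios on opposite sides of 0, and the level of SLC39A10 relative to SLC39A6 was 0.324 in the DHA library and 1.15 in the NC library. SLC39A3, of the cell surface, had 309 and 299 reads in the DHA and NC libraries, a log2 ratio of 0.13 (-0.11 to 0.36).

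Importers of intracellular membranes release stored zinc to the cytosol. SLC39A7, of the endoplasmic reticulum, was the most abundant importer in both libraries, at 48.9 RPKM in the DHA library and 37.1 in the NC library. It had 2029 reads in the DHA library and 1625 in the NC library, a log2 ratio of 0.40 (0.30 to 0.49). SLC39A13, mutated in a form of Ehlers-Danlos syndrome, had 681 reads in the DHA library and 450 in the NC library, a log2 ratio of 0.68 (0.50 to 0.85), the highest of the 10 importers. SLC39A9 had 1900 and 1796 reads in the DHA and NC libraries, a log2 ratio of 0.16 (0.07 to 0.25). SLC39A11 had 134 and 176 reads in the DHA and NC libraries, and its log2 ratio of -0.31 had an interval that included 0 (-0.65 to 0.02).

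The remaining 4 importers did not reach the read minimum. SLC39A5 had 11 reads in the DHA library and 0 in the NC library, and its counting interval began at 2.65-fold higher. SLC39A1, a widely expressed importer, had 19 reads in the DHA library and 6 in the NC library, a ratio of 3.17 (1.28 to 10.2). Its count is uncertain, because 60.8% of its exon length is shared on the same strand with AL358472.7, which had 0 reads in both libraries. SLC39A2 had 0 and 1 reads in the DHA and NC libraries, and SLC39A12 had 0 in both.

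Set against each other, exporters and importers had close medians, 0.19 and 0.14 on the log2 scale, a difference of 0.05. That difference had no stable sign, since with a minimum of 10 reads it was -0.13. The quartiles were 0.11 and 0.37 for exporters and -0.50 and 0.46 for importers, against -0.43 and 0.46 for all genes. Summed over members, exporters had 6365 reads in the DHA library and 5968 in the NC library, a ratio of 1.13 (1.09 to 1.17). Importers had 11809 reads in the DHA library and 11670 in the NC library, a ratio of 1.07 (1.04 to 1.10). Without SLC39A14 the importer sum had a log2 ratio of -0.08 in place of 0.10. The exporter sum without SLC30A9, the exporter with most reads, had a log2 ratio of 0.20 in place of 0.17.

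Summed levels of exporters were 0.421 of those of importers in the DHA library and 0.418 in the NC library, on the RPKM scale. SLC39A1 added 0.38 RPKM to the importer sums in the DHA library and 0.12 in the NC library, but its count is uncertain. Whether reads of its shared exons are missing was not tested, so these values do not bound its part in the importer and cell surface sums. Cell surface importers summed to 83.4 RPKM in both libraries, although SLC39A10 was called lower and SLC39A14 and SLC39A6 had intervals above 0. Importers of intracellular membranes summed to 79.0 RPKM in the DHA library and 61.9 in the NC library. Relative to exporters, the summed metallothionein level was 15.2 times as high in the DHA library and 8.46 times in the NC library. No test across replicates stands behind these comparisons.

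**Figure D5:**
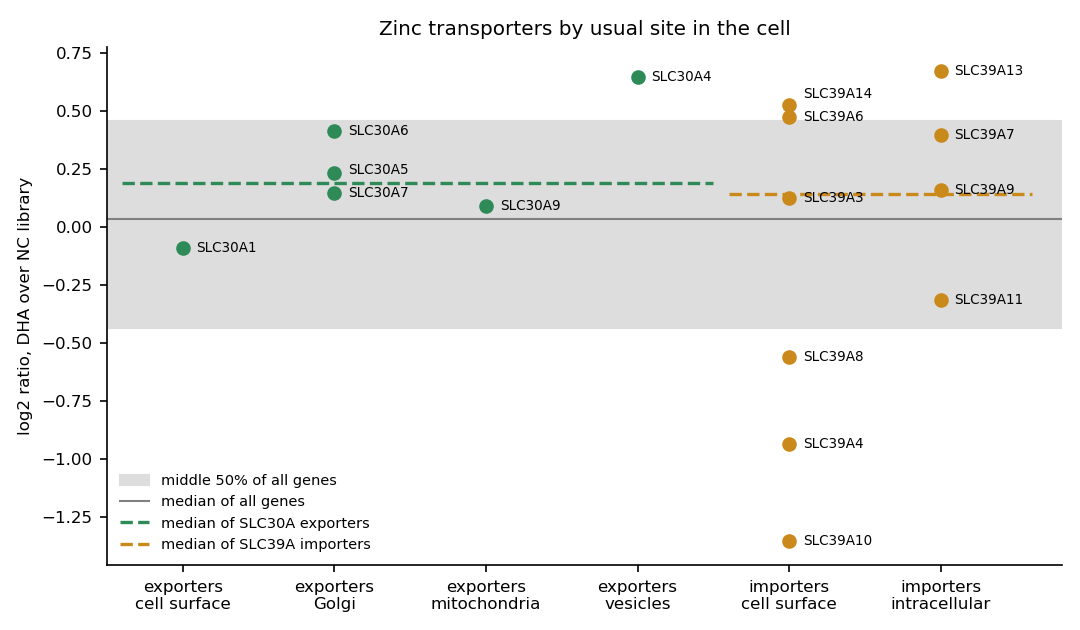
Log2 ratio of the DHA over the NC library for the 16 transporters with enough reads, by the usual site of the protein. The grey band holds the middle 50% of all genes and dashed lines are the medians of exporters and importers. Exporters lie between -0.09 and 0.65, and the lowest points are the cell surface importers SLC39A10, SLC39A4 and SLC39A8.

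Other genes of metal handling were read from lists, which were chosen with earlier results of these data known. Among 21 further zinc genes, 13 had enough reads, with a median log2 ratio of -0.04. Of the 13, 1 was higher (7.69%) and 3 were lower (23.1%), against 6.72% and 10.3% of all genes. MCOLN1, a lysosomal cation channel, had 470 reads in the DHA library and 203 in the NC library, 2.44-fold higher (2.07 to 2.90). TMEM163, a zinc efflux protein, had 53 reads in the DHA library and 402 in the NC library, 7.12-fold lower (5.38 to 9.75). TMC6, which binds SLC30A1, had 50 reads in the DHA library and 210 in the NC library, 3.95-fold lower (2.91 to 5.53). GPR39, a zinc-sensing receptor, had 111 reads in the DHA library and 237 in the NC library, 2.02-fold lower (1.61 to 2.56), and its log2 ratio of -1.01 became -0.93, short of 2-fold, after removal of the trend on length and GC.

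Of 21 copper genes, 13 had enough reads, with a median log2 ratio of 0.05 and 1 call (7.69% lower, 0 higher), the metalloreductase gene STEAP3, which was 3.02-fold lower (2.75 to 3.33). Of 16 matched secretory and cell surface zinc enzymes, 8 had enough reads, with a median of -0.07. Of the 8, 1 was higher (12.5%) and 2 were lower, again beside 6.72% and 10.3% of all genes. NT5E, the ecto-nucleotidase CD73, had 4046 reads in the DHA library and 1591 in the NC library, 2.69-fold higher (2.53 to 2.85). ALPP, a placental type alkaline phosphatase with near-identical relatives, had 18 reads in the DHA library and 320 in the NC library, 16.4-fold lower (10.5 to 28.8). CA12, a cell surface carbonic anhydrase, was 3.58-fold lower (3.11 to 4.16), with 237 reads in the DHA library and 898 in the NC library.

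Of 12 genes outside the families that have been linked to MTF1 or to cadmium, 11 had enough reads, with a median of 0.78 against 0.04 for all genes. The list was chosen with earlier results of these data known, so its share is not a test of an MTF1 response. Of the 11, 4 were higher (36.4%) and 0 lower, beside 6.72% and 10.3% of all genes. The intervals of 3 lay below 0 without a call, namely PGF at -0.62, SELENOH at -0.49 and SELENOW at -0.36 (log2), named after their values were seen. HMOX1, which breaks down heme, had 2143 reads in the DHA library and 170 in the NC library, a log2 ratio of 3.73. TXNRD1, thioredoxin reductase, had 59383 reads in the DHA library and 9277 in the NC library, a log2 ratio of 2.76. GCLC, of glutathione synthesis, had 3618 and 998 reads in the DHA and NC libraries, a log2 ratio of 1.94. DUSP1 encodes a phosphatase of stress-activated kinases and had a log2 ratio of 2.07, with 451 and 113 reads in the DHA and NC libraries. All 4 are also known to respond to oxidative stress by other routes.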

How the data were processed

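RNA-seq was done on total RNA from 1 DHA-treated and 1 NC library of a highly metastatic SUIT-2 line, and each library took its group from its treatment label. In the deposited table, values are raw read counts by gene in whole numbers, as the authors counted them, beside gene lengths in bases. The submitters' processing notes list the mouse build mm8, but all 58735 rows had the identifiers, names and coordinates of human GENCODE release 29 (GRCh38), so coordinates here are those of GRCh38. The sources used here do not give the aligner, the counter or its use of strand.

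Counts were scaled by TMM (edgeR 4.0.16, R 4.3.3; factor 1.004 for DHA and 0.996 for NC). Ratios were formed after adding 0.5 reads, with exact Clopper-Pearson 95% intervals of the share of reads in the DHA library. These cover counting error only, since PCR copies are not independent molecules. Among the 23 genes with enough reads the median half-width (log2) was 0.13. No p-value was computed. Levels are RPKM from scaled counts and deposited lengths. Promoter windows are RefSeq sequences on GRCh38.p14. Sites of transporters are background, not data.

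Every member is named, with the called genes of each list. Members, lists, sites and tests were chosen with earlier results of these data known. Alternatives were other scalings, among them DESeq2 1.42.0 size factors, read minimums, pseudocounts, fold limits and a stricter interval. Further ones, chosen after seeing the data, removed a trend across genes on length and GC or dropped genes with more than 50% of exon length in common with another gene.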

Additional observations from a re-analysis of the deposited data

How the results depend on the processing

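No paired analysis was possible because each group has 1 library with no replicate number, and no replicate could be left out. Of 161 values of single zinc genes under other settings, 157 stayed within their counting interval and 4 moved beyond it, with 0 changes of sign. Those were MT2A (1.16 with upper-quartile scaling, 1.44 with the trend removed), SLC39A7 (0.51 with the trend removed) and MT1E (0.64 with the trend removed). With a 10-read minimum, 4 zinc genes were called higher, among them 2 importers, and 1 exporter was called lower. With no minimum, 4 were called higher, among them 2 importers, and 4 lower, among them 2 exporters. A 1.5-fold limit gave 5 higher, among them 1 exporter and 1 importer, and 4 lower, among them 2 importers. A 3-fold limit gave 1 higher and 0 lower, with 0 importers. Over all genes, higher and lower calls numbered 1297 and 2126 with the 10-read minimum, 1432 and 2386 with none, 2284 and 2320 at 1.5-fold, and 219 and 556 at 3-fold, and lower calls numbered 688 with a 200-read minimum. The exporter minus importer median turned to -0.13 with the 10-read minimum and -0.067 with none. The summed metallothionein log2 ratio was 1.06 with DESeq2 size factors, 1.03 with upper-quartile scaling and 0.34 without MT2A. The exporter sum was 0.11 with upper-quartile scaling. The importer sum was 0.057 with DESeq2 size factors, 0.031 with upper-quartile scaling and -0.078 without SLC39A14. Those scalings moved the median of all genes by -0.04 and -0.07. Minimums and limits act by construction, and for the other differences the cause was not tested. Depth limits the low genes, with a half-width of up to 0.51 (log2) among the 23 genes.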
